A study of Homo sapiens with 6 samples.

Results

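The genes described here are 31 genes of cholesterol synthesis, its control by the transcription factor SREBP2, and cholesterol uptake, transport and efflux. They were found as the rows of the authors' deposited table whose NCBI gene identifier maps to the listed symbols, 31 of 19589 features. RNA sequencing compared libraries labelled HepG2, a liver tumour line. Cells of 1 group were transfected with small interfering RNA against the long non-coding RNA HOTAIR (siHOTAIR). The other group was transfected with a negative control siRNA (siNC). Both groups grew in high-glucose medium with serum, and total RNA was depleted of ribosomal RNA before stranded library preparation. The labels give 3 libraries per group, and nothing says that they came from separate cultures, so a p-value here measures only how these libraries vary, which may be technical. The means of the authors' deposited table are made of whole reads from 5 libraries, 3 of siHOTAIR and 2 of siNC, which leaves 1 labelled siNC library unaccounted for.

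Cells build cholesterol from acetyl-CoA through mevalonate, squalene and lanosterol. SREBP2, made from SREBF2, is held in the endoplasmic reticulum by its escort SCAP together with the INSIG proteins while sterols are plentiful. When sterols are low, SCAP carries it to the Golgi, where it is cut, and the freed part enters the nucleus and activates most genes of the route and the uptake of lipoproteins. Oxysterols, oxidised forms of cholesterol, activate the LXR receptors, which drive efflux. The liver is a major site of this synthesis.

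Reads of each library were recovered from the deposited means for all 31 genes. The recovered libraries are called siNC A and B and siHOTAIR A, B and C. Within each group the letters run from the largest size factor, a scale for depth, to the smallest. Which labelled replicate each one is was not given. Over the recovered features the libraries held 5139523 to 6733810 reads. HOTAIR itself was at 201.8 and 150.1 normalized counts (reads divided by the library's size factor) in siNC and at 62.4, 78.2 and 59.7 in siHOTAIR. This is 37.9% of the siNC mean, and in the authors' deposited table the log2 fold change is -1.37, with an SE of 0.197 and an adjusted p of 5.6e-11. Several defining markers of the labelled hepatic cell type were near 0. Of 18 hepatocyte markers 10 had a row, and 7 of these had a mean of at most 1, among them APOA2 (0.38), AHSG (0.21) and FGB (0.21) in the authors' deposited table. The liver transcription factor HNF4A had a mean of 5.06 in the authors' deposited table, while the urea cycle enzyme CPS1 had a mean of 23334. The other 8 hepatocyte markers, ALB, AFP, APOB, APOH, TTR, FGA, FGG and FOXA2, had no row there, and the reason is not given.

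Some markers of other cell types were called too. Over all features tested, the share called in the authors' deposited table was 40.4%, and 20% rose. Of 6 fibroblast markers with a row, 3 rose and 0 fell in the authors' deposited table at an adjusted p of 0.05, and their summed normalized counts were 1242 and 1243 in siNC and 2151 to 2546 in siHOTAIR. Of 6 endothelial markers 2 rose and 0 fell, with sums of 1280 and 1392 in siNC and 1930 to 1964 in siHOTAIR. The largest share of these sums came from COL1A1, a collagen chain, and ENG, a TGF-beta co-receptor. LUM, a fibroblast marker, and TEK and TIE1, endothelial ones, had no adjusted p and means of 3.04, 2.74 and 1.57 in the authors' deposited table, and VWF was at 0 reads in siNC A. In bulk RNA, fewer cells of a type and less RNA per cell cannot be told apart. Of 4 leukocyte markers with a row 1, CD68, fell and 0 rose, and of 4 keratinocyte or squamous, 3 intestinal and 5 cholangiocyte markers with a row 0 rose and 0 fell in the authors' deposited table. The part of these markers in the results below was not tested.

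Promoter sequence is shown for the genes at the centre of the route's control and for those that hold a motif of its regulators. RefSeq (GRCh38.p14) gave promoter windows, 250 bases before to 50 after a transcription start, for 27 of the 31 genes, 37 windows in all. TCACNCNAC, a loose form of the sterol regulatory element bound by SREBP2, was searched on both strands. It was found in 3 windows, those of SREBF2, FDPS and HSD17B7, printed here 5′ to 3′ on the gene's strand with the match in capitals.
SREBF2, chr22:41832855-41833104, plus strand: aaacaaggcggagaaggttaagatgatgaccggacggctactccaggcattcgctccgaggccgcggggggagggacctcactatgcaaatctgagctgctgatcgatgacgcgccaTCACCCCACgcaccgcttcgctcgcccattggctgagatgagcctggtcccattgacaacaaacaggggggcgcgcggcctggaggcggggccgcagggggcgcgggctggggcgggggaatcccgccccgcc
FDPS, chr1:155308690-155308769, plus strand: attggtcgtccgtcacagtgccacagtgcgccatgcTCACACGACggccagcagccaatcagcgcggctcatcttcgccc
HSD17B7, chr1:162790568-162790647, plus strand: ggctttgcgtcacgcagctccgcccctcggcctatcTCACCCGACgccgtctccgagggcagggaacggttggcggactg

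The match began 133 bases before the start of SREBF2, 140 before that of FDPS and 98 before that of HSD17B7. This motif occurs in 2.55% of 35116 promoters of the same length. By the calls given below, 1 of 10 genes with a window that rose carried it (SREBF2), 2 of 5 that fell (FDPS and HSD17B7) and 0 of 11 that did not pass. CACGTG, an E-box that SREBPs and other factors can bind, reads the same on both strands, and no gene held both motifs. It was found in 6 of the 37 windows, those of SCAP, INSIG1, LSS, SC5D and ABCA1, and occurs in 7.26% of all promoters. SCAP and INSIG1 are shown because they encode the escort and its retention partner.
SCAP, chr3:47475957-47476036, minus strand: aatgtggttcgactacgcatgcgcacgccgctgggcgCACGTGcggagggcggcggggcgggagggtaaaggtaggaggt
INSIG1, chr7:155297786-155297865, plus strand: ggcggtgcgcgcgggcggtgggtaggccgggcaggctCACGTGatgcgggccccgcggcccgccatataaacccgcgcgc

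These matches began 58 bases before the start of SCAP and 55 before that of INSIG1. CCAAT, the box bound by NF-Y, a usual partner of SREBP2, was found on either strand in 21 of the 37 windows, which belong to 19 of the 27 genes, and in 34.6% of all promoters. A gene can have several windows, so the share of promoters is to be read against the windows, not the genes. CCAAT was present in 7 of 10 genes that rose, 4 of 5 that fell and 8 of 11 that did not pass. In the sequences printed, no CCAAT match overlapped a match in capitals. A match is a description of letters in this window, not of binding.

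At an adjusted p under 0.05 in the authors' deposited table, 11 of the 31 genes rose, 6 fell and 13 did not pass, and ABCA1 had no adjusted p. The 17 called genes are 56.7% of the 30 tested, beside a background of 40.4% of all features tested, with 20% that rose and 20.4% that fell. Among features with a mean of at least 100 the share called was 52.6%, and most of the 30 genes are that abundant. The counts by role below are to be read beside these shares, and no role was tested against them. The median log2 fold change of the 30 genes was 0.18, beside 0.0069 over all features tested, and its median size was 0.26 beside 0.32. CYP27A1 is the only one of them in the authors' own list of differential genes, which holds 3.91% of all 19589 features, tested or not. That list holds only changes of at least 2-fold, and the other called genes changed less. All 3 siHOTAIR libraries lay above both siNC libraries for 16 of the 31 genes and below them for 7, and the groups overlapped for 8. Among recovered features with a mean of at least 20, the groups did not overlap in 68.0%, with siHOTAIR above in 32.7% and below in 35.3%.

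A limma fit with a mean trend on the recovered normalized counts, over all features with a mean of at least 5, called 48.8% of features. It called the same 17 genes in the same directions and added SC5D. The reads had been accepted where they gave the deposited fold change and SE, so these directions are not a separate result. The calls of ACAT2, MVD, SQLE, LSS, TM7SF2, MSMO1, HSD17B7, DHCR7, SCAP, STARD4 and CYP27A1 held in all 5 limma fits that left out 1 library each. Those of the other 6 genes did not, and their values are given beside them. Exons of 12 of the 31 genes overlap exons of other genes on the opposite strand in GENCODE 29, among them ACAT2, FDPS, LSS, CYP51A1, SREBF2, STARD4 and NPC1 of the called genes. Without the strand setting of the counting, reads of such partners cannot be told apart.

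**Figure D1:**
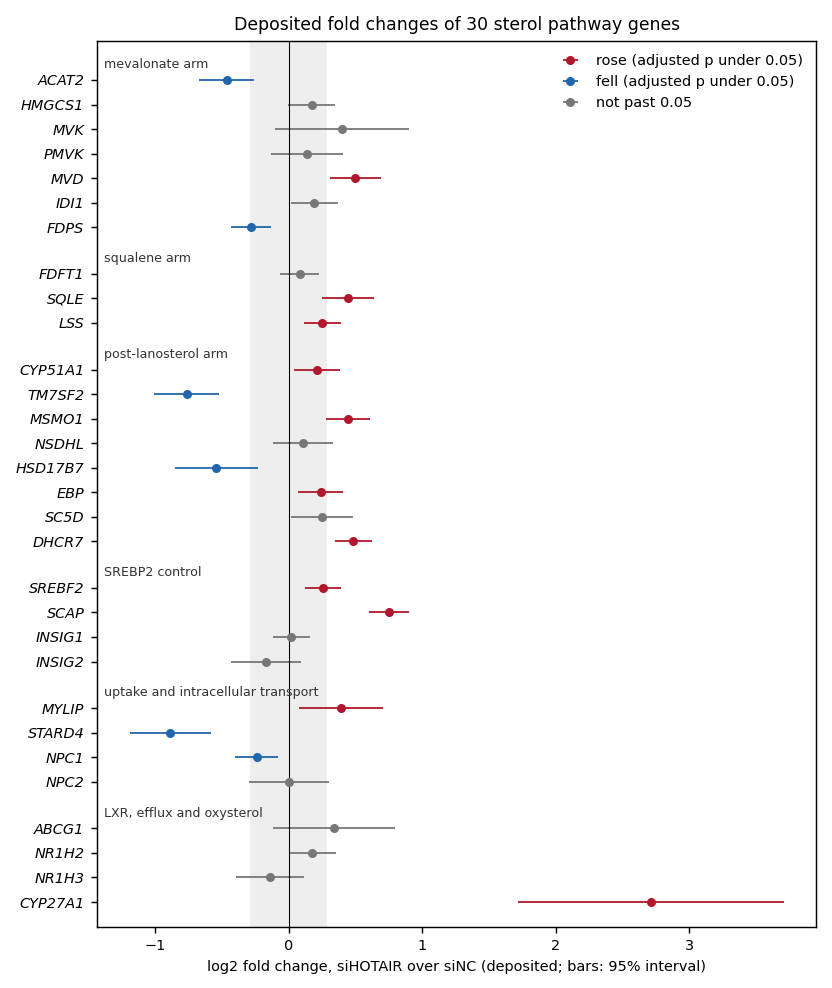
Log2 fold change of siHOTAIR over siNC from the authors' deposited table (horizontal axis) for 30 genes in rows by role, with points for the estimate and bars for its 95% interval; red rose, blue fell and grey did not pass, and the grey band runs from the 25th to the 75th percentile of all features with a mean of at least 100 (-0.28 to 0.28). The rows hold 11 red and 6 blue points, and CYP27A1 stands apart at 2.71.

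In the mevalonate arm, which leads from acetyl-CoA to farnesyl pyrophosphate, 1 of 7 genes rose and 2 fell. MVD, which decarboxylates mevalonate pyrophosphate, was at 480.6 and 565.8 normalized counts in siNC and at 700.8, 749.4 and 769.4 in siHOTAIR. The groups did not overlap, and MVD rose with a log2 fold change of 0.50 in the authors' deposited table (SE 0.0982, adjusted p = 2.8e-06). ACAT2, the cytosolic thiolase that joins acetyl-CoA units at the start of the route, was at 508.2 and 551.2 in siNC and at 403.7, 383.3 and 358.2 in siHOTAIR. It fell by 27.9% on the means, and the authors' deposited table gives ACAT2 -0.46 (SE 0.105, adjusted p = 6.0e-05). Its exons overlap those of TCP1 and SOD2 on the opposite strand.

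FDPS, which makes farnesyl pyrophosphate, the last common precursor of sterols and other isoprenoids, was at 1934.0 and 2189.3 normalized counts in siNC and at 1743.8, 1732.2 and 1603.1 in siHOTAIR. All siHOTAIR libraries were lower, and siNC A lay nearer to them than siNC B. In the authors' deposited table FDPS had -0.28 on the log2 scale (SE 0.0765, adjusted p = 0.00107). Without siNC B the limma value for FDPS was -0.19 (adjusted p = 0.108). The count of FDPS is uncertain, since the genome holds pseudogenes of it (FDPSP1 to FDPSP8 in GENCODE 29) that can share its reads.

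The other 4 genes of this arm did not pass. HMGCS1, the HMG-CoA synthase, was at 988.8 and 1021.8 normalized counts in siNC and at 1238.8, 1144.4 and 1011.6 in siHOTAIR. The siHOTAIR C library lay between the siNC libraries, and HMGCS1 had 0.17 in the authors' deposited table (SE 0.0891, adjusted p = 0.111). IDI1, which isomerises isopentenyl pyrophosphate, was at 978.7 and 1030.8 in siNC and at 1263.9, 1139.1 and 1031.9 in siHOTAIR. Here siHOTAIR C lay just above siNC B, so the groups did not overlap. The authors' deposited table gives IDI1 0.19 (SE 0.0896, adjusted p = 0.0757). Without siHOTAIR C, limma gave HMGCS1 0.24 (adjusted p = 0.02) and IDI1 0.26 (adjusted p = 0.0153). Without siHOTAIR A, limma gave HMGCS1 0.098 (adjusted p = 0.38) and IDI1 0.11 (adjusted p = 0.316), and neither passed in the other 3 fits that left out a library. The kinases MVK and PMVK phosphorylate mevalonate in turn. MVK was at 46.0 and 49.3 normalized counts in siNC and at 52.0, 78.2 and 62.0 in siHOTAIR, and had 0.40 in the authors' deposited table (SE 0.255, adjusted p = 0.212). Without siHOTAIR A, limma gave MVK 0.54 (adjusted p = 0.0322), and without siHOTAIR B 0.25 (adjusted p = 0.41). MVK passed in 1 of the 5 fits that left out a library. PMVK was at 196.7 and 242.0 in siNC and at 232.2, 239.8 and 249.0 in siHOTAIR, so the groups overlapped, with 0.14 in the authors' deposited table (adjusted p = 0.466).

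In the squalene arm 2 of 3 genes rose and 0 fell, too few genes to set against the share over all features. SQLE, the squalene epoxidase and a rate-limiting step of the route, was at 708.3 and 680.1 normalized counts in siNC and at 1070.7, 918.5 and 851.7 in siHOTAIR. It was higher in each siHOTAIR library, with siHOTAIR A highest, and SQLE had 0.45 in the authors' deposited table (SE 0.0986, adjusted p = 3.68e-05). LSS, which closes the rings to form lanosterol, was at 1469.3 and 1503.6 in siNC and at 1717.8, 1767.5 and 1834.0 in siHOTAIR. The groups lay apart with little spread in each, and LSS rose by 0.25 in the authors' deposited table (SE 0.0701, adjusted p = 0.00127). FDFT1, the squalene synthase between FDPS and SQLE, was at 2762.0 and 3124.8 in siNC and at 3232.1, 3096.1 and 3021.4 in siHOTAIR. Its groups overlapped, and in the authors' deposited table FDFT1 had 0.08 (95% interval -0.06 to 0.23, adjusted p = 0.391).

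After lanosterol 4 of 8 genes rose and 2 fell. DHCR7, which reduces 7-dehydrocholesterol to cholesterol, had the smallest adjusted p of the 18 synthesis enzymes. It was at 1875.4 and 2049.2 normalized counts in siNC and at 2798.1, 2717.1 and 2725.1 in siHOTAIR. DHCR7 was higher by 40.0%, from 1962 ± 123 (SD, n = 2) to 2747 ± 44.6 (SD, n = 3), with a log2 fold change of 0.49 in the authors' deposited table (SE 0.0692, adjusted p = 4.0e-11). MSMO1, the sterol C4 methyl oxidase, was at 797.9 and 842.6 in siNC and at 1190.3, 1073.8 and 1078.1 in siHOTAIR. It rose by 0.44 in the authors' deposited table (SE 0.0838, adjusted p = 1.08e-06), and its groups lay well apart.

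EBP, the sterol isomerase, was at 1315.3 and 1654.9 normalized counts in siNC and at 1773.3, 1740.7 and 1741.6 in siHOTAIR. The siNC libraries differed more from each other than siNC B did from siHOTAIR, and EBP had 0.24 in the authors' deposited table (SE 0.0869, adjusted p = 0.0166). By limma EBP had 0.25 with all libraries, 0.08 without siNC A (adjusted p = 0.539), 0.25 without siHOTAIR B (adjusted p = 0.0535) and 0.41 without siNC B (adjusted p = 0.00034). CYP51A1, the lanosterol demethylase, was at 1073.3 and 1061.0 in siNC and at 1380.0, 1186.2 and 1136.7 in siHOTAIR. Its groups did not overlap, with siHOTAIR A far above the other libraries, and CYP51A1 had 0.21 in the authors' deposited table (SE 0.0883, adjusted p = 0.0429). Centring all fold changes on the median of all features moved its adjusted p to 0.0512. Of the 5 limma fits that left out a library, 1 kept the CYP51A1 call, the one without siHOTAIR C (0.26, adjusted p = 0.014). The limma value with all libraries was 0.20. It was 0.12 without siHOTAIR A (adjusted p = 0.248), 0.23 without siHOTAIR B (adjusted p = 0.0804), 0.21 without siNC A (adjusted p = 0.0952) and 0.20 without siNC B (adjusted p = 0.125). CYP51A1 also has pseudogenes that can share its reads (CYP51A1P1 to CYP51A1P3).

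TM7SF2 and HSD17B7 went the other way. TM7SF2, a C14 sterol reductase, was at 359.2 and 394.4 normalized counts in siNC and at 214.0, 237.7 and 210.7 in siHOTAIR. It fell by 41.4% on the means, and the authors' deposited table gives TM7SF2 -0.76 (SE 0.124, adjusted p = 9.63e-09). An exon of TM7SF2 overlaps the neighbouring VPS51 on the same strand. HSD17B7, the 3-ketosteroid reductase of the route, was at 195.1 and 234.2 in siNC and at 160.3, 149.9 and 126.2 in siHOTAIR. All siHOTAIR libraries were lower, and HSD17B7 had -0.54 in the authors' deposited table (SE 0.157, adjusted p = 0.0023). Its pseudogenes HSD17B7P1 and HSD17B7P2 can share its reads.

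NSDHL, the C4 decarboxylase that acts with MSMO1 and HSD17B7, was at 483.1 and 518.8 normalized counts in siNC and at 621.1, 525.6 and 465.3 in siHOTAIR. Its siHOTAIR libraries lay on both sides of siNC, and NSDHL had 0.11 in the authors' deposited table (SE 0.115, adjusted p = 0.498). SC5D, the C5 desaturase, was at 303.1 and 354.1 in siNC and at 422.7, 380.1 and 361.6 in siHOTAIR. The groups did not overlap, but siHOTAIR C lay close to siNC B, and SC5D had 0.25 in the authors' deposited table (SE 0.118, adjusted p = 0.083). By limma SC5D had 0.24 (adjusted p = 0.046). It passed without siHOTAIR C (0.29, adjusted p = 0.0225) and without siNC B (0.35, adjusted p = 0.0199). It did not pass without siHOTAIR A (0.18, adjusted p = 0.183), siHOTAIR B (0.25, adjusted p = 0.0868) or siNC A (0.13, adjusted p = 0.443).

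**Figure D2:**
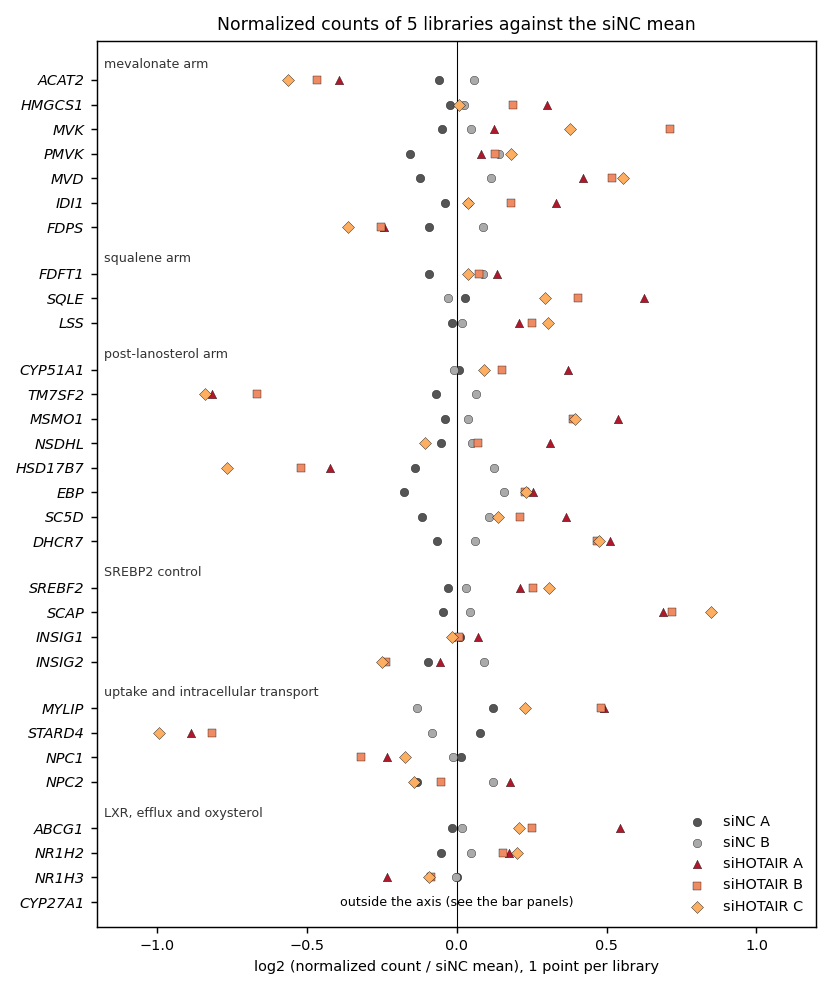
Log2 of each library's normalized count over the siNC mean (horizontal axis), 1 point per library, for genes in rows by role; circles are the 2 siNC libraries and the other symbols the 3 siHOTAIR libraries. SCAP, DHCR7, MVD and MSMO1 have all siHOTAIR points to the right of siNC, TM7SF2 and STARD4 to the left, and in HMGCS1, IDI1, SQLE, CYP51A1 and NSDHL the siHOTAIR A triangle lies farthest right.

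Within siHOTAIR the enzymes often peaked in the same library. Of the 3, A had the highest normalized count for 13 of 18 enzymes (72.2%) and C the lowest for 11 (61.1%). Among 8849 recovered features with a mean of at least 100, A was highest in 40.7% and C lowest in 41.0%. Of the siHOTAIR libraries, A had the largest size factor (1.15) and C the smallest (0.888), so this order is also that of depth. What part depth or normalization plays was not tested. ACAT2, HMGCS1, IDI1, FDPS, FDFT1, SQLE, CYP51A1, NSDHL, HSD17B7 and SC5D were each highest in A and lowest in C, and MVD, LSS and PMVK were highest in C. The pattern is within 1 group, was noticed in these values and carries no test, since the enzymes share the same 3 libraries.

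**Figure D3:**
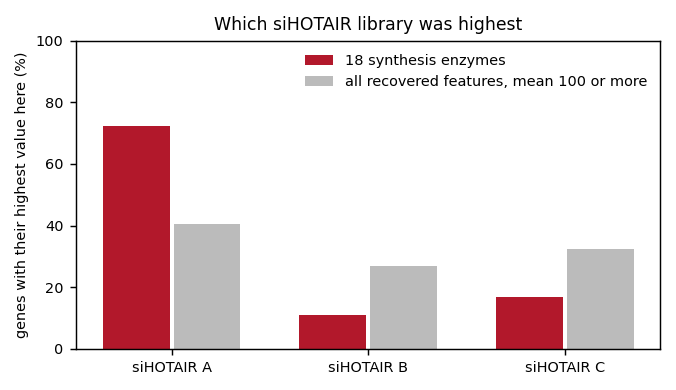
Share of genes (vertical axis, percent) whose highest normalized count among the 3 siHOTAIR libraries fell in siHOTAIR A, B or C (horizontal axis), in red for the 18 synthesis enzymes and in grey for 8849 recovered features with a mean of at least 100. The red bar of siHOTAIR A stands at 72.2% and the grey bar at 40.7%. The letters run from the largest size factor (A) to the smallest (C).

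Among the 4 genes that control SREBP2, 2 rose and 0 fell. SCAP, the escort of SREBP2, had the smallest adjusted p of the 30 genes tested. It was at 1046.5 and 1113.7 normalized counts in siNC and at 1738.6, 1776.1 and 1946.7 in siHOTAIR. SCAP was higher by 68.5%, from 1080 ± 47.5 (SD, n = 2) to 1820 ± 111 (SD, n = 3), and had 0.75 in the authors' deposited table (SE 0.0775, adjusted p = 1.62e-20). SREBF2, which encodes SREBP2 itself, was at 3271.9 and 3411.7 in siNC and at 3870.6, 3987.9 and 4141.1 in siHOTAIR. Its groups did not overlap, and SREBF2 rose by 0.26 in the authors' deposited table (SE 0.0677, adjusted p = 0.000614). Without siHOTAIR B the limma value for SREBF2 was likewise 0.26, with an adjusted p of 0.0518.

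The retention proteins did not pass. INSIG1, a target of SREBP2 that holds SCAP in the endoplasmic reticulum, was at 1393.1 and 1371.4 normalized counts in siNC and at 1451.9, 1389.6 and 1367.6 in siHOTAIR. The 5 values lay within a narrow range, and in the authors' deposited table INSIG1 had 0.02 (95% interval -0.12 to 0.16, adjusted p = 0.845). INSIG2, its paralog, was at 245.3 and 279.0 in siNC and at 252.1, 222.7 and 220.8 in siHOTAIR. Its groups overlapped, and INSIG2 had -0.17 in the authors' deposited table (SE 0.133, adjusted p = 0.338).

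Of the 4 genes of uptake and intracellular transport, 1 rose and 2 fell. STARD4, a soluble carrier of sterols between membranes, was at 236.9 and 211.8 normalized counts in siNC and at 121.3, 127.4 and 112.7 in siHOTAIR. It fell by 46.3%, from 224 ± 17.8 (SD, n = 2) to 120 ± 7.41 (SD, n = 3), and the authors' deposited table gives STARD4 -0.88 (SE 0.155, adjusted p = 1.17e-07). This was the lowest log2 fold change of the 30 genes tested. STARD4-AS1 overlaps it on the opposite strand.

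NPC1, the lysosomal membrane protein that exports cholesterol, was at 1063.3 and 1044.2 normalized counts in siNC and at 897.5, 844.7 and 935.0 in siHOTAIR. All siHOTAIR libraries were lower, and NPC1 had -0.24 in the authors' deposited table (SE 0.0812, adjusted p = 0.0103). By limma NPC1 had -0.24 with all libraries, -0.20 without siHOTAIR B (adjusted p = 0.135) and -0.23 without siNC A (adjusted p = 0.0752). NPC2, which hands cholesterol to NPC1, was at 1397.3 and 1668.3 in siNC and at 1732.6, 1477.4 and 1389.0 in siHOTAIR. The groups overlapped fully, and in the authors' deposited table NPC2 had 0.0017 on the log2 scale (95% interval -0.30 to 0.30, adjusted p = 0.995). MYLIP, the ubiquitin ligase that marks lipoprotein receptors for breakdown and a target of LXR, was at 150.7 and 126.6 in siNC and at 194.9, 193.8 and 162.2 in siHOTAIR. The lowest siHOTAIR library lay just above the highest siNC library, and MYLIP had 0.39 in the authors' deposited table (SE 0.16, adjusted p = 0.0367). Without siNC B the limma value for MYLIP was 0.28 (adjusted p = 0.167).

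Of the 5 genes of LXR, efflux and oxysterols, 1 rose and 0 fell. CYP27A1, the mitochondrial sterol 27-hydroxylase that makes an oxysterol and starts an acidic bile acid route, had 2 reads in each siNC library and 39, 24 and 17 in the siHOTAIR libraries. In normalized counts this is 1.7 and 2.2 against 33.8, 25.7 and 19.2, so every siHOTAIR library was far above siNC. The ratio of summed reads, each sum divided by the group's summed size factors, was 14.02 (exact 95% interval 5.27 to 52.7, counting error only). The authors' deposited table gives CYP27A1 2.71 (SE 0.506, adjusted p = 7.49e-07), the largest log2 fold change of the 30 genes, on a scale shrunken toward 0. At this level siNC rests on 4 reads in all.

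The LXR receptors NR1H2 (LXR beta) and NR1H3 (LXR alpha) did not pass. NR1H2 was at 601.1 and 644.2 normalized counts in siNC and at 702.6, 692.7 and 715.3 in siHOTAIR, and had 0.18 in the authors' deposited table (SE 0.0897, adjusted p = 0.103). NR1H3 was at 252.8 and 252.1 in siNC and at 214.8, 237.7 and 236.6 in siHOTAIR, and had -0.14 in the authors' deposited table (SE 0.131, adjusted p = 0.433). In both genes the groups did not overlap, with opposite directions. The LXR targets of efflux were low. ABCG1, which exports cholesterol to lipoproteins, was at 56.9 and 58.3 in siNC and at 84.0, 68.5 and 66.5 in siHOTAIR, with 0.34 in the authors' deposited table (SE 0.233, adjusted p = 0.257). ABCA1, which loads cholesterol onto apolipoproteins, had 1 and 0 reads in siNC and 0, 2 and 0 in siHOTAIR. Both groups of ABCA1 are at or under 3 reads in sum, so a difference was not detectable at this depth.

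**Figure D4:**
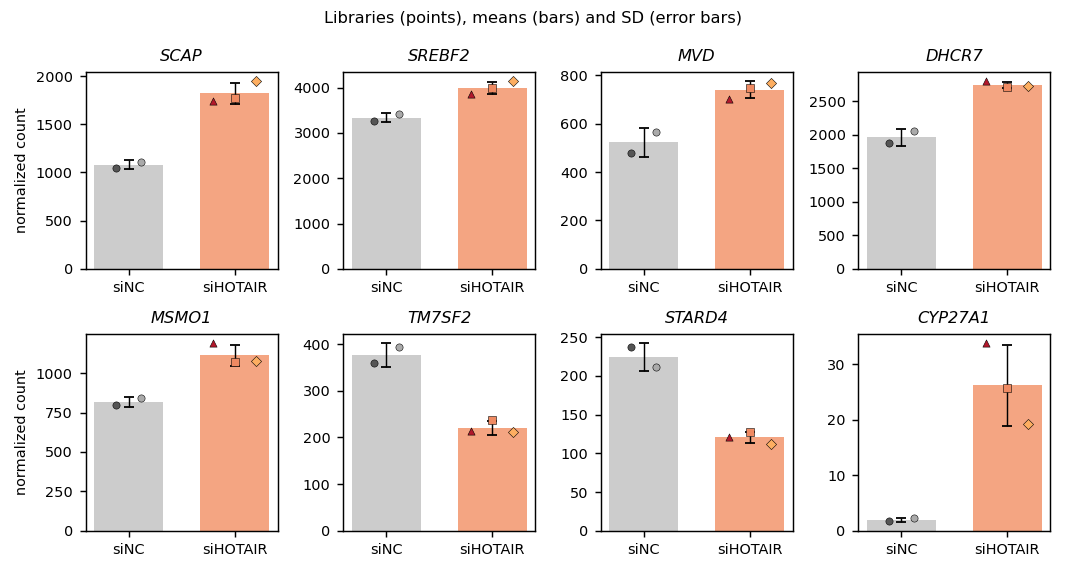
Normalized counts (vertical axis, from 0, its own scale in each panel) of 8 genes in siNC and siHOTAIR, with points for libraries, bars for the group mean and error bars for the SD (n = 2 and n = 3). In 6 panels the siHOTAIR points lie above siNC, and in TM7SF2 and STARD4 below; CYP27A1 is near 2 in siNC.

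Per kilobase of exon (the union of exons in GENCODE 29), the siNC level was highest for FDPS, with 1252 normalized counts per kilobase, followed by EBP (837), DHCR7 (736) and FDFT1 (641). Among the 18 enzymes it was lowest for MVK (16.2), followed by SC5D (122). SREBF2 stood at 623 and SCAP at 238 on this scale, and INSIG1 at 449 against 101 for INSIG2. ABCG1 (12.7) and CYP27A1 (0.86) were near the bottom. The genes that fell spanned these levels, from FDPS at the top to STARD4 at 40.5 per kilobase.

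Of 53 further sterol genes 50 had a row and 49 an adjusted p, and 12 rose, 13 fell and 24 stayed above 0.05 by the authors' deposited table. Their 51.0% called compares with 40.4% of all features tested and with 52.6% of features with a mean of at least 100. Most of these genes are that abundant, and their median log2 fold change was 0.04. The proteases that cut SREBP2 in the Golgi went in opposite directions. In the authors' deposited table MBTPS1, the site-1 protease, had 0.51 (SE 0.0707, adjusted p = 9.57e-12) and MBTPS2, the site-2 protease, -1.06 (SE 0.133, adjusted p = 4.55e-14). MBTPS2 was at 457.1 and 402.2 normalized counts in siNC and at 240.0, 189.5 and 180.2 in siHOTAIR. The acetyl-CoA enzymes divided too. In the authors' deposited table the mitochondrial thiolase ACAT1 had 0.58 (adjusted p = 2.25e-07) and ACSS2, which makes acetyl-CoA from acetate, -1.13 (adjusted p = 3.26e-17). LBR is a C14 sterol reductase like TM7SF2, and in the authors' deposited table it had 0.42 (SE 0.0876, adjusted p = 9.7e-06), opposite in sign to TM7SF2. LBR was at 589.4 and 600.5 normalized counts in siNC and at 810.8, 805.1 and 779.6 in siHOTAIR.

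Among genes of storage and transfer, 3 of 12 rose and 3 fell, beside 20% that rose and 20.4% that fell among all features tested. SOAT1, which esterifies cholesterol for storage, was at 1179 and 1135 normalized counts in siNC and at 757.1, 729.1 and 683.8 in siHOTAIR. In the authors' deposited table it had -0.67 (SE 0.083, adjusted p = 1.36e-14), and GRAMD1B, which moves sterol from the plasma membrane to the endoplasmic reticulum, -0.67 (SE 0.0688, adjusted p = 1.78e-20). Of 9 genes of the isoprenoid branches 2 rose and 1 fell, and of 5 LXR partners and targets with a row 1 rose and 0 fell.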

How the data were processed

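RNA sequencing covered 3 siHOTAIR and 3 siNC libraries by their labels; groups come from the titles. The submitters' processing notes name, as used by the authors, the build hg19 and the tools HTSeq 0.6.1, DESeq and DESeq2. Aligner, annotation and strand setting: not given in the sources used here. Deposited by the authors were tables of 1 comparison, with the mean signal (counts divided by size factors, averaged over libraries), the shrunken log2 fold change and SE, the statistic (a score), the p-value and the Benjamini-Hochberg adjusted p. The call words are the authors', as deposited. There are 0 columns of single libraries, so the planned tests on counts were not run.

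A gene rose or fell when its adjusted p from the authors' deposited table (DESeq2 columns, per the file headers) was under 0.05, among 14597 features. Its 95% interval is the normal interval from the deposited SE.

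The deposited means are whole-number sums of 5 steps, each what 1 read adds to the mean. A step's group came from the sign of the deposited fold change of features with a single read there. Reads were accepted where 1 solution gave the mean and, for most features, the fold change (within 2e-07 for means of at least 200 and 1e-05 for 20 to 200) and SE. This gave reads for 18784 of 19171 features with means up to 4000 (98.0%), 16980 with all 3 values and 1804 from the mean alone. All 31 members had 1 solution. Size factors were 1.19 and 0.893 (siNC) and 1.15, 0.934 and 0.888 (siHOTAIR). Tested on simulated data, 133 of 148 features with means of 2 to 100, 202 of 202 of 100 to 1000 and 40 of 41 of 1000 to 4000 were recovered, 0 wrongly. The simulated fold changes and SEs came from the same model that the recovery uses. The test therefore shows whether solutions are unique under that model, not whether the model matches the authors' fit. Features with lower means, such as ABCA1, were not simulated. At these depths the precision of a count is set by its reads and by the spread of 5 libraries.

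Limma 3.58.1 (R 4.3.3) with a mean trend was fitted on log2 of normalized counts plus 1 over 13484 features with a mean of at least 5. In simulated counts for these features it called 56 of 100 changes of 0.5, 91 of 100 of 1 and 17 of 13284 unchanged features. The simulation changed a far smaller share of features than the 48.8% called in the data, so these rates do not carry over to the fit reported.

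The members and lists were chosen with earlier results of these data known. The naming rule was HOTAIR, all members, and the 5 further sterol genes with the smallest p in each direction; some genes it names are not reported here. Promoters are from RefSeq, and 31 of 37 member windows end (last 30 bases) in a GENCODE 29 transcript of the gene.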

Additional observations from a re-analysis of the deposited data

How the results depend on the processing

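An adjusted p under 0.001 left 7 members that rose and 3 that fell, and, of the further sterol genes, 8 that rose and 8 that fell. Requiring a 2-fold change as well as 0.05 left 1 (CYP27A1) and 0, where 11 and 6 members pass 0.05 alone by the authors' test and 12 and 6 by limma. Over the 5 limma fits that left out 1 library each, 8 to 14 members rose and 5 to 6 fell. Without an siNC library the lone siNC library is assumed to vary like the others. The sign turned only in members near 0. NPC2 had -0.0052 after centring and -0.00052 by limma, and against that limma value 0.0084 by limma-voom. Leaving out 1 library, the limma value of NPC2 ran from -0.13 to 0.13 (0.023 without siHOTAIR B, 0.067 without siHOTAIR C), of PMVK from -0.011 to 0.29, of FDFT1 from -0.0044 to 0.17, of NSDHL from -0.018 to 0.19 and of INSIG1 from -0.0038 to 0.039. The value below 0 came without siNC A for PMVK and FDFT1 and without siHOTAIR A for NSDHL and INSIG1. The cause was not tested. Limma without a filter on the mean called 10 and 6. Adjustment over every feature with a p, a mean of at least 20, and centring each left 10 and 6. The limma filters were chosen after seeing the data. The other deposited table holds the same means and adjusted p, so it gave no separate value. No paired analysis was possible because the recovered libraries carry no replicate numbers.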
